A study of Drosophila melanogaster with 2 samples.

Results

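The 10 genes described here are the core of the Drosophila Dpp pathway, taken by name from a set of symbols. That set was chosen with earlier results of these data known. It holds the ligands dpp and gbb, the receptors tkv, sax and put, and the Smads Mad and Med. The transcriptional regulators shn and brk and the inhibitory Smad Dad complete it. All 10 symbols were found among the 13945 protein-coding genes on the 6 chromosome arms. The data are chromatin immunoprecipitation sequencing (ChIP-seq) peak lists for Meics, a zinc-finger protein whose name, Meiotic central spindle, comes from its place in dividing male germ cells. The material was whole Drosophila melanogaster embryos of 0 to 24 h and of both sexes, from a transgenic line that stably expresses Meics with GFP at its C terminus, and the fusion protein was pulled down through GFP. There was 1 group of 2 biological replicates, numbered 1 and 3, so the lists give where the fusion protein was enriched but compare no conditions, ages or tissues. No control library was analysed here, the read depth is unknown, and a whole-embryo list cannot tell which cells gave a peak.

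Dpp is a secreted BMP-type signal that patterns the dorsal side of the fly embryo, and later the gut, trachea and imaginal discs. Ligand binding brings together type I receptors (Tkv and Sax) and the type II receptor Put, which leads to phosphorylation of Mad. Phosphorylated Mad enters the nucleus with Med, activates some targets, and with Shn represses brk through a short DNA sequence called the silencer element. Brk is itself a repressor of Dpp target genes, so that silencing brk opens those genes to expression, and Dad feeds back to inhibit the signal.

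Of the 30 Meics-GFP summits inside these genes 29 were in introns, and of the 48 outside within 20 kb 18 lay at another gene's promoter. Of all 7689 peaks of the reproducible list, 3307 were promoter peaks, and the intronic share over all genes is not given here. Neither count is therefore called particular to these genes. A summit of the reproducible peak list lay within 500 bp of a transcription start site (TSS) in 2 of the 10 genes, put and shn. The share of all protein-coding genes was 26.1%, and a count of 2 in 10 does not set these genes apart from it. A summit lay inside the gene in 6 of 10, against 17.1% of all protein-coding genes, but 5 of the 10 are 10 kb or longer, as are 1977 of all 13945, and long genes hold more sequence. All 10 had a summit in the gene or within 20 kb of it, as did 87.4% of protein-coding genes. The gene that stood apart was shn, with 21 summits in its introns, the second highest count of any protein-coding gene. The reproducible list is the authors' list of 7689 peaks that passed an irreproducible discovery rate (IDR) threshold, and ranks below are places in it by the authors' signal value, 1 being the strongest. Signal values in that list ran from 144.4 to 19876, with a median of 262.

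The sequences below are those at the put promoter, at the strongest summit within Mad and within Dad, and at the summit nearest the brk TSS, with 50 bases on each side of the summit. For put and brk the summit shown is the one nearest the TSS of that gene. The Mad and Dad summits shown are above the median signal. No shn sequence is shown, although its promoter summits (-147 and -261 bp) were closer to a TSS than that of brk (-749 bp). The brk sequence was chosen after its values were seen, the weaker intronic summits of dpp and tkv are not shown, and for put only the 51 bases before the TSS that lie outside any untranslated region are given. The sequences come from the RefSeq copy of the dm6 assembly, are written 5′ to 3′ on the strand of the gene, and hold none of the 9 motifs searched below.
put, chr3R:14625704-14625754, minus strand: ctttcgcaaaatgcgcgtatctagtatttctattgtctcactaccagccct
Mad, chr2L:3153380-3153480, minus strand: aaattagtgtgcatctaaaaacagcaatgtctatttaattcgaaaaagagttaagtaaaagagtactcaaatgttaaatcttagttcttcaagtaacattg
Dad, chr3R:17065141-17065241, plus strand: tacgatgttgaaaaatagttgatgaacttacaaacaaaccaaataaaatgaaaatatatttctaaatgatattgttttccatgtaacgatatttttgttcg
brk, chrX:7307140-7307240, plus strand: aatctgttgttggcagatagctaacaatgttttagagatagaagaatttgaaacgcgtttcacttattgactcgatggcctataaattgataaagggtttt

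A further pair of summits, chosen after their values were seen, carried the Brinker core GGCGCC, the sequence that Brk recognises in Dpp targets. GGCGCC was at 3 of the 78 summits in or within 20 kb of the genes, beside 1.46% of all 7689. The summit near sax that held it is not shown. Of the pair, the brk summit ranked 6235, and the region of the Dad summit ranked 16124 in replicate 1 and 1361 in replicate 3. The pair lay upstream of brk and in an intron of Dad, and capitals mark the GGCGCC in both and, in the brk sequence, matches to GAGAG or its complement.
brk, chrX:7300428-7300528, plus strand: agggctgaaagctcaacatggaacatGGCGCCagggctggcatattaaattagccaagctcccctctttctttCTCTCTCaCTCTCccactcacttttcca
Dad, chr3R:17065357-17065457, plus strand: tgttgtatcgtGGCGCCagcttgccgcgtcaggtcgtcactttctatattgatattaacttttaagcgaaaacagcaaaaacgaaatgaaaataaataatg

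The brk flank also held matches to the silencer element itself, although none lay within 50 bp of a summit. The 6 that lay within 250 bp of a summit are shown with their distance from the brk TSS, on the strand of the match, with the letters that the element constrains in capitals.
Match at -15987 bp, chrX:7291945-7291959, minus strand: GGCGcCcgtgcGTCT
Match at -13838 bp, chrX:7294094-7294108, plus strand: GGCGaCagactGTCT
Match at -8211 bp, chrX:7299721-7299735, plus strand: GACGaCagagtGTCT
Match at -8179 bp, chrX:7299753-7299767, plus strand: GGCGaCattctGTCT
Match at -7657 bp, chrX:7300275-7300289, minus strand: GGCGcCtctatGTCT
Match at -2169 bp, chrX:7305763-7305777, minus strand: GACGaCggactGTCT

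**Figure D1:**
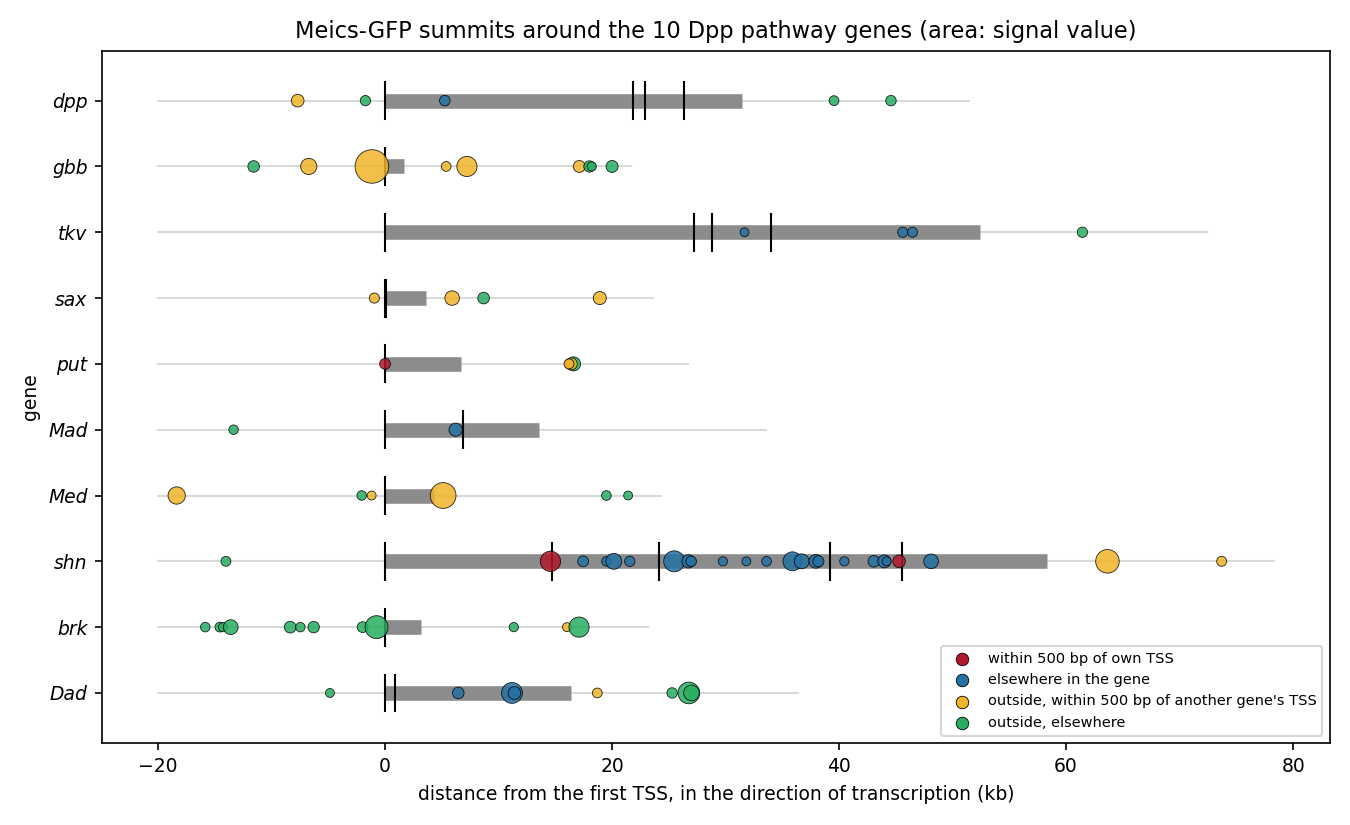
Summits of the reproducible list in and within 20 kb of each of the 10 genes, drawn against the distance from the gene's first TSS in kb in the direction of transcription. Grey bars are gene bodies, vertical ticks are annotated TSSs, point area follows the authors' signal value and colour gives the class of position. The 21 summits in shn start at its second TSS, and the 12 around brk all lie outside the gene.

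The ligand genes had no reproducible summit at any of their TSSs. The gene dpp (FBgn0000490, chr2L:2428372-2459823, plus strand) encodes the main BMP-type ligand of the fly. It has 4 annotated TSSs and held 1 summit, in an intron 5265 bp downstream of the first TSS, which ranked 4338 with a signal value of 238. The matching region ranked 5061 in replicate 1 and 4453 in replicate 3, each list holding 30000 regions. Of the 4 summits in its flanks, the closest lay at -1728 bp and ranked 4751, and a pair lay downstream at 13187 and 18206 bp from the last TSS. The strongest of the 4, ranked 2484, lay 154 bp from the start of the neighbouring gene CG9886.

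The second ligand gene, gbb (FBgn0024234, chr2R:23851562-23853247, plus strand), encodes a BMP-type protein that can pair with Dpp. It is 1686 bp long and held no summit, but 9 lay within 20 kb, of which 5 were at another gene's promoter. The strongest peak in reach of any of the 10 genes was among them, at -1159 bp from the gbb TSS and -102 bp from that of eIF6, a ribosome assembly factor. It ranked 53 with a signal value of 3040, and ranked 53 and 54 in replicates 1 and 3. The next strongest were at the promoters of bgcn, ranked 499, and Snap29, ranked 1097. The strongest signal beside gbb was thus at the starts of its neighbours.

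Of the receptor genes, put alone had a promoter summit. It encodes the type II receptor and spans chr3R:14619030-14625703 on the minus strand (FBgn0003169). The summit lay 2 bp into the transcript, ranked 4023 and had a signal value of 252.8, just under the median of the list. The matching region ranked 6479 in replicate 1 and 3258 in replicate 3. The start of the histone H4 replacement gene His4r lies 52 bp away on the other strand, within the same peak, so the peak cannot be given to either gene. The protein-coding promoter peaks next to it in rank belonged to Spn43Ab and CG18178, with signal values of 252.8 and 252.7. The 3 summits outside put lay near CG14853, 16204 to 16608 bp downstream of the put TSS.

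The type I receptor gene tkv (FBgn0003716, chr2L:5219000-5271384, minus strand) had 3 intronic summits and none within 500 bp of its 4 TSSs. They ranked 4936, 5089 and 7651, with signal values of 213.4, 207.6 and 145.1, all under the median. The weakest lay at -2351 bp from the nearest tkv TSS, and the others lay 11580 and 12443 bp beyond the last TSS. For those others the nearest protein-coding TSS was that of TpnC25D, 7528 and 6665 bp away, and not of tkv. The other type I receptor gene, sax (FBgn0003317, chr2R:7806484-7810067, plus strand), held no summit in its 3584 bp. The nearest lay at -941 bp, ranked 5040, and was 23 bp downstream of a start site of the neighbouring gene Nop17l, transcribed the other way. The strongest in its flanks, ranked 1546, was 110 bp before the start of puml.

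The Smad genes had no promoter summit. Mad (FBgn0011648, chr2L:3146056-3159643, minus strand), the receptor-activated Smad of the pathway, held 1 intronic summit at -677 bp from the second of its 2 TSSs. It ranked 2180 with a signal value of 408.6, above the median, and its region ranked 2884 and 1836 in replicates 1 and 3. Med (FBgn0288966, chr3R:31611046-31615375, plus strand), the co-Smad, held none in the gene and had 6 in its flanks, 3 of them at other promoters. The strongest, ranked 183 with a signal value of 1764, lay 4 bp before the start of Mnat9, just beyond the end of Med. The nearest to the Med TSS lay at -1183 bp, ranked 7429, and was 48 bp before a start site of CycG. The peaks around Med were thus strongest at neighbours, as around gbb.

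Dad (FBgn0020493, chr3R:17054007-17070408, plus strand), the inhibitory Smad, had 3 intronic summits. The strongest lay 10294 bp downstream of the second TSS, ranked 444, had a signal value of 1127 and ranked 437 and 474 in replicates 1 and 3. A summit 10510 bp from that TSS ranked 2481, but its region ranked 16124 in replicate 1 and 1361 in replicate 3. That ratio of 11.8 between the replicate ranks was the largest of all 78 summits in or within 20 kb of the 10 genes, so this summit rests mainly on replicate 3. The third, 5562 bp from the second TSS, ranked 3325. For the summits at 10294 and 10510 bp the nearest protein-coding TSS was that of Ns1, 7484 and 7268 bp away, and not of Dad. Of the 5 summits outside Dad, the strongest ranked 374 and lay 527 bp into kuk.

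The shn gene, which encodes the large zinc-finger protein that joins Mad and Med in repression, carried the densest signal of the set. It spans chr2R:11159086-11217394 on the plus strand (FBgn0003396), has 5 TSSs, and held 21 summits over its 58309 bp, all in introns. The first summit lay 14570 bp from the first TSS, the 21 spanned 33533 bp, and the last 10205 bp of the gene held none. Neighbouring summits were 203 to 3914 bp apart, with a median of 1592 bp. Of the 21, 12 were among the strongest 3844 of the list and 3 were among the strongest 768, and the weakest ranked 7652. Peaks that overlapped one another formed 18 separate regions. Counted from each replicate's own strongest 7689 regions, shn held 19 summits in replicate 1 and 21 in replicate 3.

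Among the TSSs of shn, the second and the fifth had a promoter summit. The summit at -147 bp from the second TSS ranked 488 with a signal value of 1063, and its region ranked 1349 in replicate 1 and 282 in replicate 3. The summit at -261 bp from the fifth TSS ranked 2493 with a signal value of 370.3, and its region ranked 1705 and 3584. The replicates therefore ordered the 2 promoters alike but at different distances from the top of their lists. The strongest summit of the gene was not at a promoter but 1333 bp downstream of the third TSS, with a rank of 432 and a signal value of 1142. It ranked 482 and 392 in replicates 1 and 3, and another intronic summit, at -3296 bp from the fourth TSS, ranked 627. By rank, the promoter peak at the second TSS stood between those of APP-BP1 and rdx, and that at the fifth between those of ctrip and ETHR.

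The brk gene (FBgn0024250, chrX:7307939-7311132, plus strand), which encodes the repressor that Dpp signalling silences, had the opposite layout. It held no summit in its 3194 bp but had 12 within 20 kb, the most flanking summits of the 10 genes, of which 1 was at another gene's promoter. The closest, at -749 bp, ranked 297 with a signal value of 1378, and its region ranked 250 and 370 in replicates 1 and 3. It was the strongest summit whose nearest coding TSS belonged to a member. A further 8 summits lay upstream, from -1973 to -15840 bp, with the strongest of these at -13594 bp and ranked 1478. For 5 of these 8, that strongest included, the nearest protein-coding TSS was that of unc-119 and not of brk. Downstream, the strongest ranked 502 and lay 813 bp into Dok. All 12 also lie within CG1677, a longer gene on the other strand that surrounds brk and held 19 summits, and within the non-coding gene lncRNA:CR44357, so the position does not assign them to brk.

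With a window of 200 bp the promoter count stayed at 2 of 10, against 18.6% of protein-coding genes. It rose to 5 of 10 with 1000 bp, against 30.3%. The summits inside the 500 bp limit were put at 2 bp and the shn promoters at -147 and -261 bp, and the nearest outside it were Mad at -677 bp, brk at -749 bp and sax at -941 bp. Weaker regions were present at most of the other promoters. In the pooled list of 30000 regions, which holds background by design, 9 of the 10 genes had a region with its summit within 500 bp of a TSS, Mad being the exception, against 46.2% of protein-coding genes. In the lists of replicates 1 and 3 the counts were 9 and 8, against 45.9% and 48.5%. A gene counted through any of its TSSs, and the members had a median of 2 TSSs against 1 for all protein-coding genes. In these lists dpp and tkv had no region at their first TSS and counted through later ones only. The shares are therefore not like for like. The best ranks in the pooled list were 8329 for Dad, 9197 for tkv, 9753 for brk, 12707 for Med, 13066 for sax, 14628 for dpp and 18913 for gbb. The brk region was listed in neither replicate alone.

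A neighbour's start site on the other strand lay close to 5 of the 10 genes. In gbb, sax, put, Mad and Med, such a protein-coding TSS lay within 500 bp, at 82 bp for ytr beside gbb, 99 bp for Nop17l beside sax, 52 bp for His4r beside put, 307 bp for gkt beside Mad and 68 bp for CycG beside Med. Of these 5, put had a promoter summit, against 45% of the 3878 protein-coding genes with such a neighbour.

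**Figure D2:**
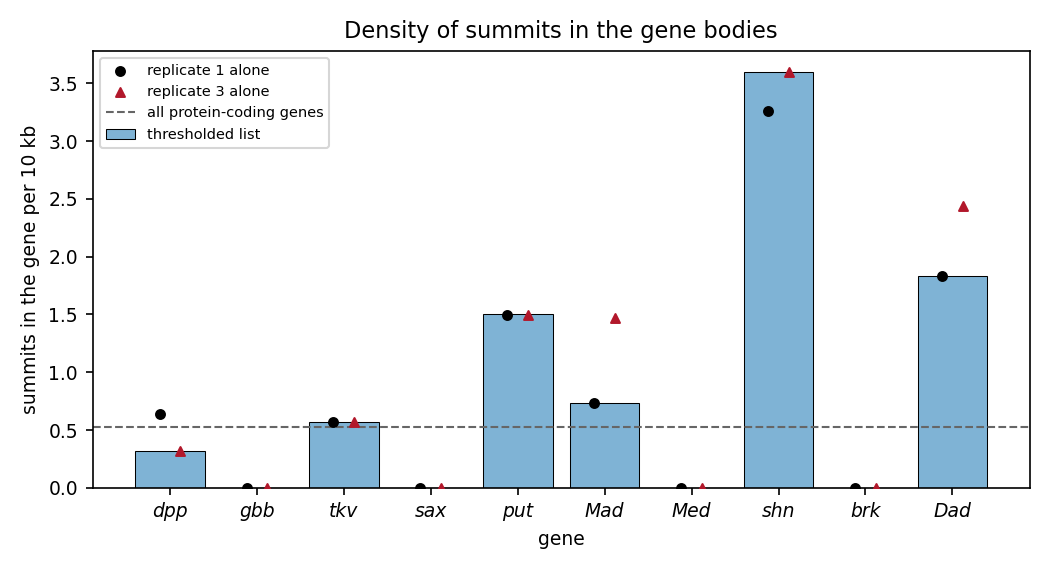
Summits per 10 kb of gene body in each of the 10 genes. Bars are the reproducible list, circles and triangles are the strongest 7689 regions of replicates 1 and 3 alone, and the dashed line is all protein-coding genes together at 0.523. The shn bar is at 3.6 and gbb, sax, Med and brk are at 0 in all 3 lists.

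Per length, most of the summits within the genes were in shn. The 10 genes together held 30 summits in 191604 bp, or 1.57 per 10 kb, against 0.523 per 10 kb for all protein-coding genes. The replicates taken alone gave 1.51 and 1.67, a mean of 1.59 ± 0.111 (SD, n = 2). Without shn the other 9 genes held 9 summits in 133295 bp, or 0.675 per 10 kb. Among the 1977 protein-coding genes of 10 kb or longer, which held 0.527 per 10 kb in all, 60% had at least 1 summit, as did all 5 members of that length.

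By density among those 1977 genes, shn was at place 29 with 3.6 per 10 kb, and 98.5% of them were lower. Its replicate values of density had a mean of 3.43 ± 0.243 (SD, n = 2). Dad followed at 1.83 per 10 kb and place 199, with a replicate mean of 2.13 ± 0.431 (SD, n = 2). Mad at 0.736, tkv at 0.573 and dpp at 0.318 per 10 kb took places 672, 805 and 1024. The median of the long genes was 0.361, so Mad and tkv were above it and dpp below. By the number of summits alone, shn with 21 came after kirre with 25 and before CG1677 with 19. Within 20 kb, gene included, the members had a median of 5.5 summits and all protein-coding genes a median of 3. That window grows with the gene, and a larger part of the members is long, so these medians compare windows of unlike length.

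The summits inside the genes were almost all intronic. Of the 30 inside the genes, 29 were in introns and the other was the put summit in its 5′ untranslated region. Of the 48 outside, 18 lay at another gene's promoter, beside 3307 promoter peaks among all 7689. The intronic share over all genes is not given here, so these positions are not called particular to the members. The median GC content within 50 bp of the 30 summits was 35.1%, from 22.8% to 50.5%, beside a median of 33.7% over all 7689 summits.

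**Figure D3:**
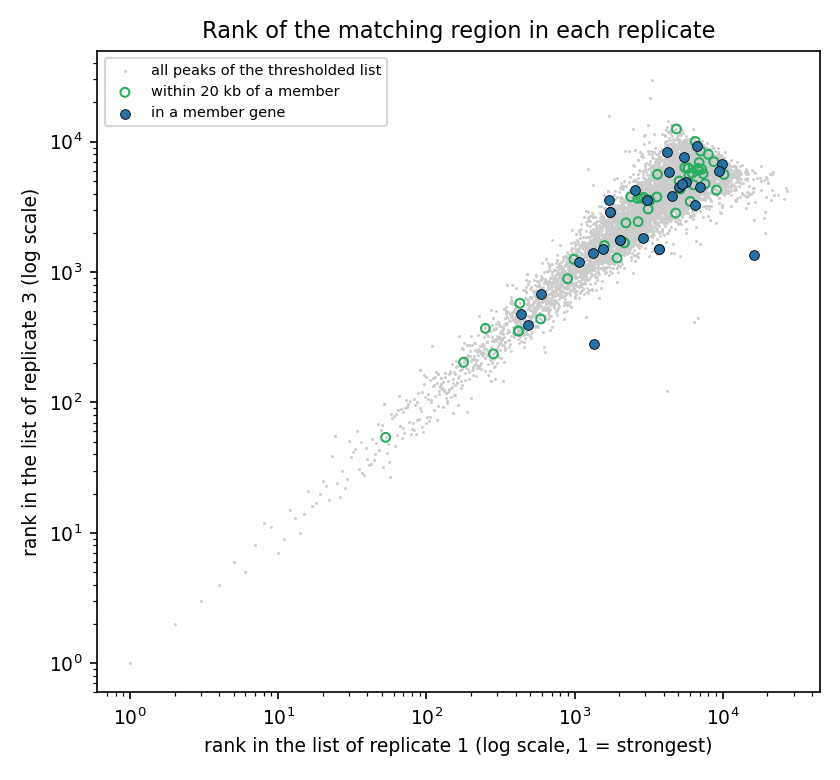
Rank of the matching region in the list of replicate 1 (x, log scale) against that in replicate 3 (y, log scale) for the 7689 peaks of the reproducible list. Filled points are the 30 summits inside the 10 genes, open circles those within 20 kb, and grey points all peaks. Most members' points lie along the diagonal, and the farthest from it is the Dad summit at 16124 and 1361.

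The replicates placed the members' peaks about as they placed all peaks. All 30 summits inside the genes matched a region in both full replicate lists, and 25 matched one among the strongest 7689 of both. The median ratio between their replicate ranks was 1.38, against 1.24 over all 7689 peaks. For the 78 summits in or within 20 kb of the genes, 66 matched in the strongest 7689 of both and the median ratio was 1.23. Over all peaks, 6418 of 7689 did. The replicate ranks of adjacent summits can be the same, because a wide region of a replicate may match several summits.

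Sequence motifs of the pathway were rare under the members' summits. Each motif was searched on both strands within 50 bp of the summit. The Brinker core GGCGCC was found at 3 of the 78 summits, near sax, brk and Dad, and at 1.46% of all 7689. Its variant GGCGTC was found at 2 of 78, near gbb and brk, and also at 1.46% of all. The Mad core GCCGNCG was found at 2 of 78, both near sax, and at 1.76% of all. The Smad box GTCTAGAC and the silencer element were at none of the 78, and at 0.026% and 0.039% of all summits.

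Other motifs were also rare, GAGAG excepted. TATCGATA, which contains the core that DREF and BEAF-32 recognise, was at 1 of 78 members' summits, near gbb, and at 1.46% of all. GTGACGAA was at none of the 78 and at 1.69% of all, and GTAACGAA was at 2, in tkv and upstream of brk, and at 0.988% of all. GAGAG, the core of GAGA factor sites, was at 10 of 78 and at 4 of the 30 inside the genes, all 4 of them in shn, and at 10.4% of all. No motif is called particular to the members from these counts.

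**Figure D4:**
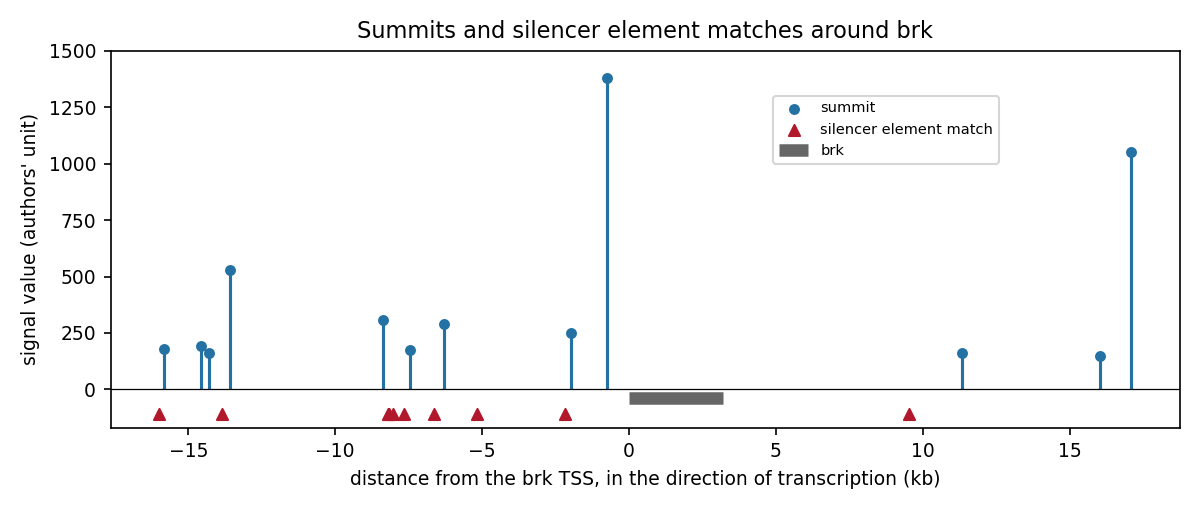
Summits of the reproducible list around brk, drawn as stems with the authors' signal value on the y axis against the distance from the brk TSS in kb, and matches to the silencer element as triangles below the axis. Of the 10 matches, 9 lie upstream, and 6 are within 250 bp of a summit.

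Searching the whole locus rather than the summits, a step chosen after the summit values were seen, gave a more uneven picture. The 10 genes with 20 kb on each side held 17 matches to the silencer element, of which 10 were at brk, 3 at dpp, 2 at shn, 1 at tkv and 1 at Dad. The other 5 genes held none. Of the 8873 protein-coding loci no longer than the 43194 bp of brk with its flanks, 4 held as many or more, brk included, and the median was 0. That count uses sequence alone, and brk is the gene repressed through this element, so it says nothing about Meics-GFP. At brk, 9 of the 10 matches lay upstream, and 6 of the 10 were within 250 bp of a summit, at 145 to 244 bp from it. In that locus 13.4% of bases were that close to a summit. None of the 7 matches at the other members was.

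Over the genome, 34 of 913 matches, or 3.72%, were within 250 bp of a summit, beside 2.73% of the bases of the arms. The 34 include the 6 at brk. The brk count turned on the distance used. Within 100 bp it was 0 of 10 and within 500 bp it was 8 of 10, against 0.876% and 8.21% of all matches. Of the bases of the arms, 1.15% and 5.26% were that close to a summit. The share of the brk locus is given for 250 bp only, and with 12 summits it grows with the distance. The 6 matches within 250 bp lay beside 5 of the 12 brk summits, those at -15840, -13594, -8356, -7461 and -1973 bp. The other 7, among them the strongest at -749 bp and the summit in Dok ranked 502, had none that close.

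**Figure D5:**
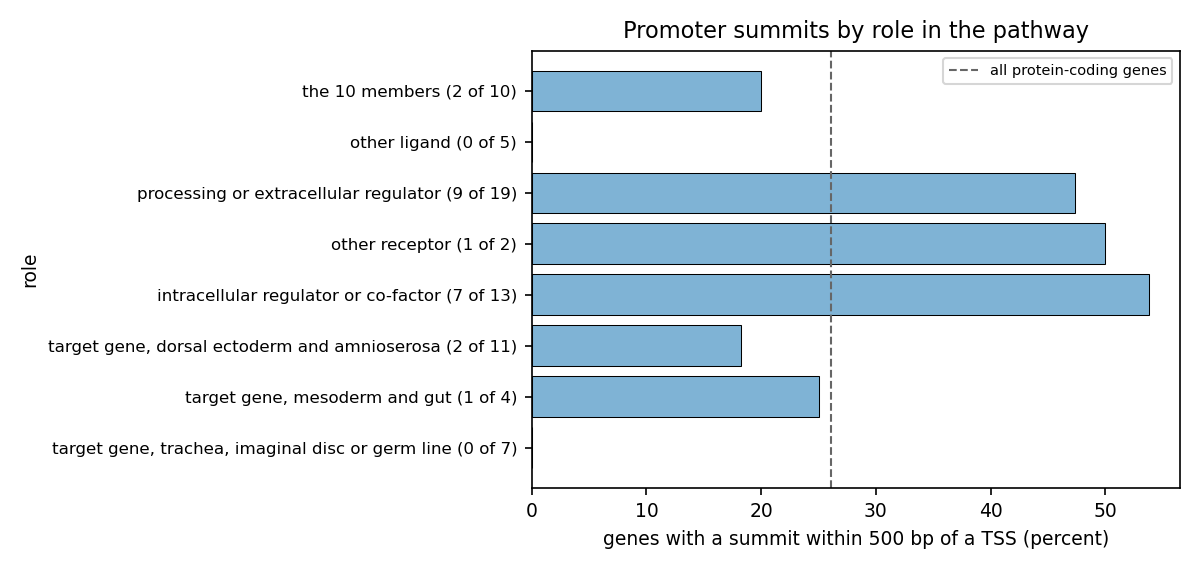
Share of genes with a summit within 500 bp of a TSS, in percent, for the 10 members and for 61 other genes of the pathway by role. The dashed line is all protein-coding genes at 26.1%. Extracellular and intracellular regulators reached 47.4% and 53.8%, and ligands and the targets of trachea, disc and germ line were at 0.

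Beyond the 10 core genes, 61 other genes of the Dpp and related BMP and activin branches were listed by role, also with earlier results of these data known. A promoter summit was present in 20 of the 61, or 32.8%, against 26.1% of all protein-coding genes. A summit lay in the gene in 22, or 36.1%, against 17.1%. The list includes long genes, such as Fur1 with 125628 bp, and long genes hold more sequence. Of the other receptors, wit, a type II receptor that acts at the neuromuscular junction, had a promoter summit ranked 6871, and babo, the type I receptor for activins, had none. None of the 5 further ligands (scw, mav, daw, Actbeta and myo) had one. With dpp and gbb the ligand count was 0 of 7, and with the 3 core receptors the receptor count was 2 of 5. None of the 4 Smad genes (Mad, Med, Dad and Smox) had one. With groups this small, these counts describe the genes and were not tested.

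Among genes that process or move the ligands outside the cell, 9 of 19 had a promoter summit, or 47.4%, against 26.1% of all protein-coding genes. The strongest was at Fur1, a protease that cleaves BMP precursors, at -220 bp with a rank of 263 and a signal value of 1499, and its region ranked 239 and 273 in replicates 1 and 3. Next came magu, ranked 1181, and nord, ranked 1200, both of which encode secreted modulators of BMP signalling. The glypican dlp ranked 1596, the activin-binding follistatin Fs 1824 and kek5 2852. The others were cv-2, cv and dally. The extracellular antagonist sog had 3 summits in the gene but none at its promoter, and its partners tsg and tld had neither.

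Inside the cell, 7 of 13 regulators and co-factors had a promoter summit, or 53.8%, against 26.1% of all protein-coding genes. The kinase gene sgg, the fly GSK3, ranked 216 with a signal value of 1645 at -187 bp, and the co-repressor gene gro ranked 338 with 1278 at -141 bp. The co-activator nej, the fly CBP, ranked 1897, the importin msk 2005, spict, which acts in receptor traffic, 2132 and Sara, which brings Smads to the receptor, 3552. The export receptor emb was the seventh. Snoo, a Smad co-repressor, had 12 summits in the gene and none at a promoter. The replicate ranks of sgg were 219 and 213 and those of gro 360 and 349. A gene counted through any of its TSSs, of which sgg has 11, gro 4 and nej 3. The median in this role was 1, as over all protein-coding genes.

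Target genes of the pathway had promoter summits in 3 of 22, or 13.6%, against 26.1% of all protein-coding genes. In the dorsal ectoderm and amnioserosa they were Ance, ranked 3007, and ush, ranked 4809, of 11 genes. The others, zen, zen2, Doc1, Doc2, Doc3, pnr, tup, C15 and peb, had none. In mesoderm and gut it was tin, the heart and visceral mesoderm regulator, ranked 922 with a signal value of 739.3, of 4 genes. None of the 7 targets of the trachea, imaginal discs or germ line (kni, knrl, bi, salm, salr, vg and bam) had one. The ush gene, which encodes a GATA co-factor, held 16 summits at 2.49 per 10 kb, the sixth highest number of any protein-coding gene.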

How the data were processed

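Genomic DNA from 2 immunoprecipitated chromatin samples was sequenced. Per the labels, fragments were 200 to 800 bp. The authors deposited, on dm6, 2 replicate lists and a pooled list of 30000 regions each and an IDR-thresholded list of 7689, which was checked to be the strongest 7689 of the pooled list. Read alignment, the calling of peaks and the IDR threshold: not given in the sources used here. The deposited signal value (column 7) is the authors' own enrichment measure of unstated scaling, used here only for ranks within a list. Regions with dm3 coordinates were not used. Depth is unknown, so no interval is given.

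Gene models and TSSs were those of Ensembl, BDGP 6.54 (release 115), and sequence was from RefSeq. A promoter summit lay within 500 bp of any TSS of the gene, and a gene-body summit between its first and last base. Distances are signed, negative before the TSS. Replicate regions matched by at least 1 bp of overlap. For a replicate alone, its 7689 strongest regions were used. There was 1 group, so no test was made. The members and the lists of other pathway genes and of motifs were chosen with earlier results of these data known. Named outside the 10 genes were the nearest coding gene of the 3 strongest flanking summits, up to 6 genes per role, and rank neighbours in the list. The brk sequence, CG1677, lncRNA:CR44357, Snoo, kirre, Ns1, TpnC25D and the nearest summits of Med and sax were named after their values were seen. Counting was tested on simulated data. Python 3.11.15, numpy 2.4.6 and pandas 2.3.3 were used, with matplotlib 3.10.9 for plots.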

Additional observations from a re-analysis of the deposited data

How the results depend on the processing

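The number of members with a promoter summit was the value that moved most. It was 2 as reported, against 26.1% of protein-coding genes. With a window of 1000 bp it was 5 (sax, put, Mad, shn and brk), against 30.3%. It was 1 (shn) in the upper part of the list by signal, against 16.5%, and 9 in the pooled list, against 46.2%. The share of all genes thus moved with the setting as well. The number of members stayed at 2 or 3 in the other settings, and was 2 to 3 with each replicate left out, tkv being the gene added. The share of all genes was 18.6% with 200 bp and 28.1% with the whole peak interval. It was 26.8% without replicate 1 and 26.2% without replicate 3. Members with a summit in the gene numbered 6 as reported, 6 with either replicate left out and 3 in the upper part of the list by signal. The share of all protein-coding genes was 17.1% as reported and is not given for these other settings. Summits per 10 kb were 1.57 as reported, 0.835 in the upper part by signal, 0.675 without shn and 1.41 with overlapping peaks counted once, an alternative added after the data were seen. With a replicate left out they were 1.51 to 1.67. The other pathway genes with a promoter summit numbered 20 as reported and 13 with a window of 200 bp, and were 20 to 21 with a replicate left out. No paired analysis was possible because there is 1 group and no test. Without replicate 3, the strongest promoter peak of shn ranked 1349 and that of put 6479. The causes were not tested. A summit places a peak and does not assign it to a gene. With 2 replicates, no control library and no read depth, neither absent peaks nor differences in level between libraries can be judged.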
